A study of Homo sapiens with 35 samples.

Results

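Protein-coding RNA of RPMI-8226 cells, an established line of human multiple myeloma, was compared between day 2 after a pulse of carfilzomib and untreated day 0. The members were the 5 libraries labelled Day 2 and the 5 labelled Day 0, which made 10 of the 35 libraries of the series, and the rows with the biotype protein_coding. The pulse was 750 nM carfilzomib, a covalent proteasome inhibitor used in the clinic, for 1 h, after which the drug was washed out. The labels list carfilzomib for the day 0 libraries too, but the study's methods place the day 0 collection before the drug, and day 0 was taken as untreated. All 10 libraries were of the same line, grown in RPMI-1640 with fetal bovine serum, and the study's methods describe subcultures split from an expanded culture while a legend speaks of independent experiments. If the first holds, p-values measure only the spread between subcultures of that culture. The cells of day 2 were taken ahead of a change of medium. On day 0 the cells were brought to a set density in fresh medium and left to equilibrate before the pulse. Whether the day 0 libraries were collected before or after that step is not stated. No library of untreated cells kept until day 2 was among the 35, so the pulse, the time in culture and the state of the medium cannot be told apart.

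The proteasome degrades proteins tagged with ubiquitin, and myeloma cells, which make and secrete large amounts of immunoglobulin, depend on it heavily. When it is blocked, cells induce new proteasome subunits, heat shock chaperones, the oxidative stress programme of NRF2 and the integrated stress response, in which the factor ATF4 turns on genes for amino acid supply and, if stress lasts, for cell death. Growth arrest through CDK inhibitors, and its reversal in survivors, are read indirectly from transcripts of replication and mitosis, which do not count dividing cells.

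The 10 libraries held 6641766 to 10962890 estimated counts in all, and 14427 to 15200 protein-coding entries with a count. Replicates of a day differed from each other by more than counting noise (chi-square per degree of freedom from 2.62 to 8.85), so none was a copy of another. Levels are given as CPM, the count of an entry scaled to the TMM-normalized protein-coding library size, as mean ± SD of the 5 libraries of a day or library by library in the order of replicates 1 to 5. Fold changes are fitted log2 values of day 2 over day 0 with their standard error (SE), and adjusted p-values are from edgeR over all entries tested. Of 19665 protein-coding entries 17999 had a count in any of the 35 libraries and were tested. In bulk RNA a lower level can come from fewer cells with the transcript or from less of it in each cell, and these cannot be told apart.

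On day 2, 1137 entries were called higher than on day 0 (6.32% of those tested) and 1609 lower (8.94%), with an adjusted p of at most 0.05 and a change of over 2-fold. At the adjusted p alone, the rule used for members of gene lists below, 4181 were higher (23.2%) and 4397 lower (24.4%), and the median log2 fold change over all entries was -0.039. More than 8-fold changes were found for 95 entries that rose and 297 that fell. The 5 libraries of day 2 lay wholly above or wholly below those of day 0 for 2167 of the 2746 entries called, beside 36.7% of all entries tested. More entries were called lower than higher, but without scaling factors between libraries the order turned, with 1418 higher and 1346 lower. That choice moved the median of the 12301 entries with enough counts from 0.0048 to 0.13 on the log2 scale, and all fold changes with it. Replicate 3 of day 0 had the lowest protein-coding share of its counts, 78.1%, and without it 1133 entries were called higher and 1492 lower.

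**Figure D1:**
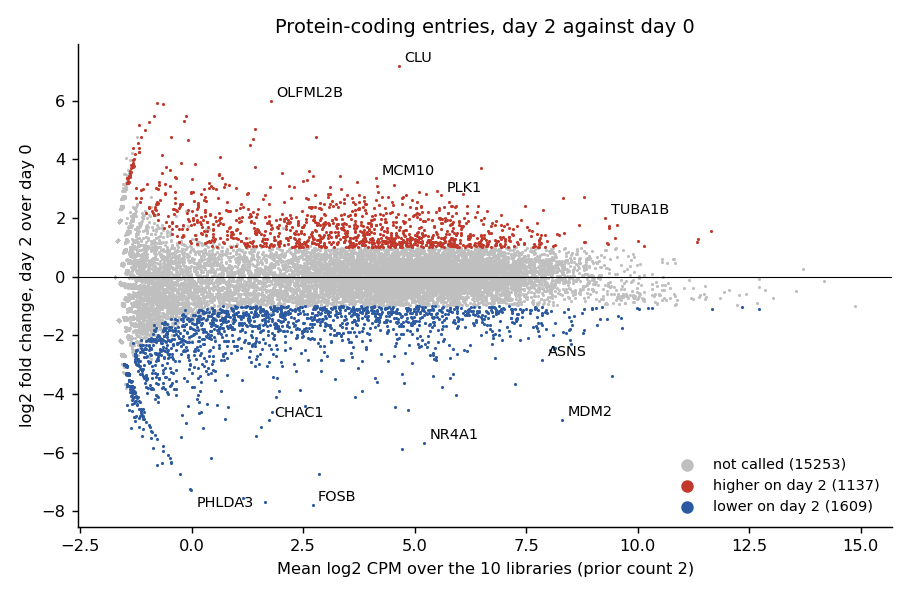
Fitted log2 fold change of day 2 over day 0 (vertical axis) against the mean log2 CPM of the 10 libraries (horizontal axis) for 17999 protein-coding entries. Red points are the 1137 entries called higher, blue points the 1609 called lower and grey points the rest, and CLU, MDM2 and FOSB lie far from zero at well-measured levels.

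The largest rise among well-measured entries was that of CLU (chromosome 8, 27596917 to 27614700), which encodes clusterin, a secreted chaperone. Its level was 2.25, 2.06, 1.43, 0.601 and 3.85 CPM in the day 0 libraries and 321, 331, 283, 275 and 304 CPM in the day 2 libraries, a log2 fold change of 7.19 (SE 0.15, edgeR adjusted p = 1.52e-32). Every day 2 library was far above every day 0 library, and non-overlap of the days was a condition for naming the largest rises. On day 1 CLU had been higher still (661 ± 25.5 CPM), and day 2 was lower than day 1 by a log2 difference of -1.12. OLFML2B, an olfactomedin-like protein of the extracellular matrix, was at 0.141, 0.794, 0.179, 0.401 and 0 CPM on day 0 and 19.4, 22.5, 22.2, 19.6 and 21.4 CPM on day 2 (log2 fold change 6.01, SE 0.31). The day 0 libraries were all below 1 CPM and the day 2 libraries lay close together. The other large rises were those of C2CD4A (4.75), PCP4 (4.7), a calmodulin-binding peptide, SECTM1 (4.49), NEIL3 (3.74), a DNA glycosylase, and TNFRSF8 (3.62), which encodes the receptor CD30. KRT6C (5.04) and PRAMEF9 (4.09) were also among the 10 largest, and both have near-identical paralogs between which reads can be split, so their values are uncertain.

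Among the largest falls were genes that cells induce acutely under stress or stimulation. FOSB, a subunit of the AP-1 factor, was at 79, 65.4, 78.5, 74.8 and 69.7 CPM on day 0 and 0.287, 0.536, 0.338, 0.154 and 0.157 CPM on day 2 (log2 fold change -7.78, SE 0.26, edgeR adjusted p = 1.8e-26). NR4A1 (chromosome 12, 52022832 to 52059507), an orphan nuclear receptor of the immediate-early class, went from 276, 262, 255, 259.7 and 247 CPM to 4.16, 5.47, 5.41, 4.94 and 5.19 CPM (-5.68, SE 0.08). PHLDA3, a p53 target that inhibits AKT, was at 26, 25.1, 26.1, 25.9 and 24.6 CPM on day 0 and was counted only in replicate 5 on day 2, at 0.629 CPM. The days did not overlap for any of these, which was a condition for naming them among the largest falls. CCL3, a chemokine, was at 63 ± 14.6 CPM and then 0.62 ± 0.404 CPM (-6.71), RRAD, a small GTPase of the RGK family, changed by -5.87, and PDE2A, a phosphodiesterase, by -5.42. For MUC21, GDF15 and DMGDH only 2, 2 and 3 counts remained over the 5 day 2 libraries. The ratio of day 0 to day 2 was 256 (70.4 to 2120.2) for MUC21, 101 (27.5 to 841) for GDF15, a stress-induced cytokine, and 44.7 (14.9 to 220.3) for DMGDH, a mitochondrial dehydrogenase, with 95% exact intervals that cover counting error only. DUX4 (-5.12) belongs to a repeat array with many near-identical copies, and its value is uncertain.

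Transcripts of mitosis were higher on day 2 almost without exception. Of 60 kinases, motors and kinetochore proteins 59 rose and 0 fell, 57 of them by over 2-fold, with a median log2 fold change of 2.04. The exception was UBE2C, a ubiquitin-conjugating enzyme of the anaphase-promoting complex, with few counts and a value of -1.5 (edgeR adjusted p = 0.0922). PLK1 (chromosome 16, 23677656 to 23690367), the kinase that drives entry into and progress through mitosis, was at 21.8, 17.3, 19.5, 12.8 and 20.4 CPM in the day 0 libraries and 136, 124, 126, 124 and 123 CPM in the day 2 libraries. The lowest day 2 library was thus several times the highest day 0 library, and the log2 fold change was 2.77 (SE 0.11, edgeR adjusted p = 3.71e-24). CCNB1, cyclin B1, the partner of CDK1, was at 24, 26, 23.2, 22.8 and 24.8 CPM on day 0 and 138, 131, 129, 122 and 129 CPM on day 2 (2.42, SE 0.08). TOP2A, the topoisomerase that untangles sister chromatids, went from 114 ± 4.37 to 406 ± 12.1 CPM (1.83), and MKI67, the proliferation marker Ki-67, from 40.6 ± 5.82 to 167 ± 13.6 CPM (2.04). The largest rises on the list were those of KIF20A (3.23), a kinesin of cytokinesis, and AURKA (2.9), the kinase of spindle poles. The smallest were those of BUB3 (0.37), a spindle checkpoint protein, and CDC25B (0.90), a phosphatase that activates CDK1. FOXM1, a transcription factor of many mitotic genes, rose by 2.21 and CDK1 by 2.35. The study's own cell cycle analysis of this line, by BrdU uptake, put the lowest proliferation at day 2, with a rise by day 4. It also found the fewest viable cells on day 2. How the transcript levels relate to these measurements was not tested.

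Promoters of mitotic genes often carry a CHR element (TTTGAA on either strand), through which the DREAM complex represses them in resting cells, and CCAAT boxes (CCAAT on either strand). Both were sought in RefSeq windows of 300 bases from 250 before to 50 after each start (GRCh38.p14), and a gene with several windows was counted if any of them held the motif. Windows were found for 51 of the 60 members and for 14194 of the 17999 entries tested. A CHR element was found for 37 members (72.5%) and 15.1% of all entries, a CCAAT box for 40 (78.4%) and 42.5%, and both in the same window for 29 (56.9%) and 6.26%. Members with both had a median log2 fold change of 1.99 and those without 2.03, so the 2 medians were close. Shown are bases -150 to -1 of PLK1 (chr16:23678739-23678888, + strand) and of ZWINT, a kinetochore protein (chr10:56361260-56361409, - strand), the members with the largest rise whose stretch holds both. Capitals mark the motifs.
PLK1: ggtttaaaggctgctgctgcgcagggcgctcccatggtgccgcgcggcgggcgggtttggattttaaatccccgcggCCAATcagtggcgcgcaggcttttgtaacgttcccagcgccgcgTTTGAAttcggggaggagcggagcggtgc
ZWINT: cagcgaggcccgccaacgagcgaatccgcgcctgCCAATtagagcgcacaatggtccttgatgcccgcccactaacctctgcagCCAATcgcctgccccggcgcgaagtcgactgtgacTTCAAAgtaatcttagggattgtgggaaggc
In PLK1 the CCAAT box spans bases -73 to -69 and the CHR element -29 to -24, and in ZWINT the CHR element lies at -31 to -26, read on the other strand, behind CCAAT boxes at -116 to -112 and -66 to -62. A match is a description of the sequence and was not tested for binding. ZWINT itself changed by 2.59 on the log2 scale.

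**Figure D2:**
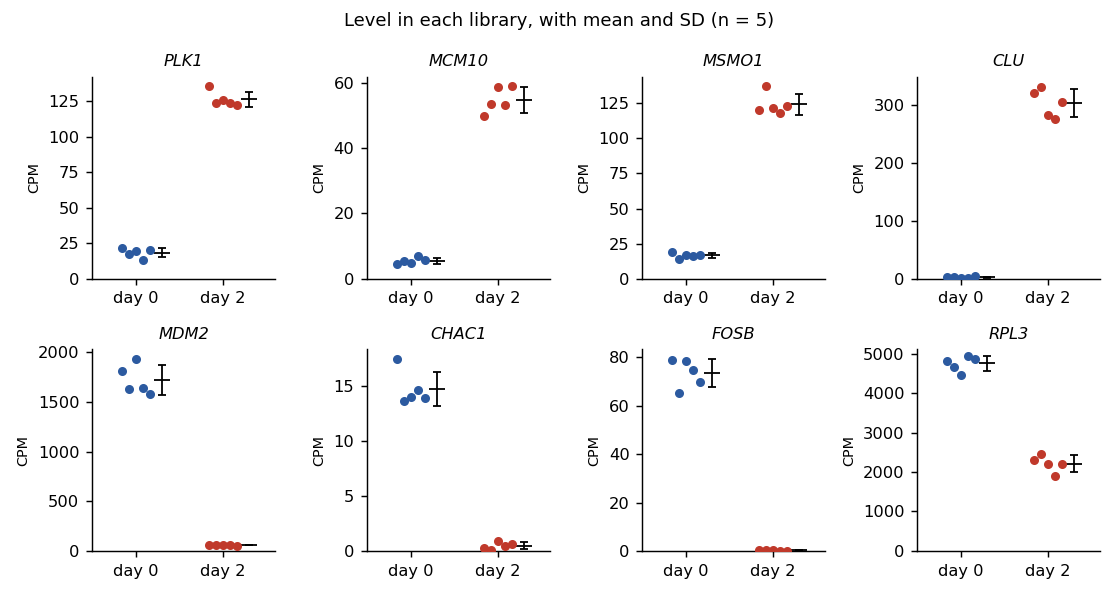
Level in CPM (vertical axes, each from 0) of 8 genes in each library of day 0 (blue) and day 2 (red), with the mean and SD of 5 libraries in black. In all 8 genes the 5 day 2 libraries do not overlap the 5 day 0 libraries, with PLK1 at 12.8 to 21.8 CPM on day 0 and 123 to 136 CPM on day 2.

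DNA replication moved with mitosis. Of 51 genes of licensing and synthesis 48 rose and 0 fell (median 1.35), 36 by over 2-fold. MCM10, which helps to start the replicative helicase, was at 4.36, 5.4, 4.83, 7.01 and 5.58 CPM on day 0 and 49.9, 53.5, 58.9, 53.4 and 59.1 CPM on day 2 (3.35, SE 0.13). ORC6, a subunit of the origin recognition complex, changed by 3.27 and UHRF1, which maintains DNA methylation behind the fork, by 3.1. The members that did not pass were DBF4 (0.12), an activator of the kinase CDC7, ORC4 (0.01), another origin subunit, and PCNA (-0.033), the sliding clamp. PCNA was at 169 ± 11.8 CPM on day 0 and 165 ± 3.89 CPM on day 2. An E2F site (TTTGGCGC, TTTCCCGC, TTTCGCGC or TTTGCCGC on either strand) was found in windows of 23 of 46 members and of 5.72% of all entries. The stretch of UHRF1 (bases -150 to -1, chr19:4909351-4909500, + strand) is shown as the member with the largest rise that holds such a site there, in capitals at -14 to -7 and read on the other strand.
UHRF1: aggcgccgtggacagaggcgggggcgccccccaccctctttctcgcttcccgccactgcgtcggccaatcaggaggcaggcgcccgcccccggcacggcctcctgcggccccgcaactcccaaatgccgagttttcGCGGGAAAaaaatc
UHRF1 stood at 4.22, 6.98, 6.43, 4.81 and 7.51 CPM in the day 0 libraries and 48.9, 51.8, 46.2, 55.8 and 52.4 CPM in the day 2 libraries.

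Nucleotide supply rose as well, in 21 of 26 enzymes, with 1 lower (median 0.73). RRM2, the regulated subunit of ribonucleotide reductase, went from 25.1 ± 1.91 to 179 ± 11.4 CPM (2.84) and TYMS, thymidylate synthase, from 25.3 ± 5.77 to 133 ± 12.5 CPM (2.41). UMPS, the last enzyme of uridylate synthesis, was the member that fell, by 0.69 on the log2 scale, and CTPS2 had a value of -0.071 that did not pass. Homologous recombination and Fanconi repair had 30 of 35 members higher and 0 lower (median 1.05). RAD54L (2.73), a motor of strand exchange, and EXO1 (2.49), an end-resecting nuclease, rose most, and BRCA1 rose by 1.87. The lowest values were those of MUS81 (-0.12) and RAD51B (-0.041), neither of which passed. Among 27 G1 cyclins, their kinases and E2F factors 18 rose and 2 fell (median 0.65). E2F8 (3.05), a repressive E2F, and CDC25A (2.43), the phosphatase of S phase entry, rose most, and E2F1 rose by 1.31. E2F7, the close relative of E2F8, fell by 1.2 on the log2 scale, and E2F6 had -0.86 (edgeR adjusted p = 0.111), but passed with the libraries of both days alone (-0.83).

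Tubulins rose in 11 of 14 members and fell in 2 (median 1.15). TUBA1B was at 293, 326, 269, 341 and 315 CPM on day 0 and 1283, 1321, 1226, 1195 and 1172 CPM on day 2 (2.01). TUBB2B rose by 1.91, and TUBE1 (-2.37), a centriolar tubulin, and TUBB2A (-0.66) fell. TUBB2A and TUBB2B are close paralogs between which reads can be split, so their values are uncertain. Replication-dependent histones did not follow the other genes of replication. Of 48 with a count 3 rose and 14 fell (median -0.19, or -0.0087 with members without counts on a day set at their bound). Among those with a mean log2 CPM above 0, HIST1H3G (2.01) and HIST1H2BH (1.32) were the highest, and HIST1H4H (-1.97) and HIST1H2AC (-1.97) the lowest. Most histone messages lack a poly(A) tail, and the study's methods do not say whether poly(A) RNA was selected. Many are also near-identical copies, so these values are uncertain.

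CDK inhibitors and other growth-arrest genes split into members that fell and members that rose. Of 17 with a count 5 rose and 8 fell (median -0.49, or -0.40 at bounds), and 3 rose without replicate 3 of day 0. CDKN1A (chromosome 6, 36676460 to 36687337), which encodes p21, the main CDK inhibitor under p53, was at 672, 505, 588, 493 and 471 CPM in the day 0 libraries and 42.5, 46.9, 40.6, 39.5 and 46.2 CPM in the day 2 libraries (-3.66, SE 0.10, edgeR adjusted p = 1.68e-29). The highest day 2 library was far below the lowest of day 0. GADD45B, a growth-arrest and stress gene, fell by 1.42 on the log2 scale. CDKN1C, which encodes p57, went the other way, from 22.1, 23.8, 14.3, 21.8 and 17.5 to 87.7, 87.1, 78.9, 63.5 and 77.7 CPM (1.98, SE 0.14), and GAS2L1, a cytoskeletal linker, rose by 1.9.

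The p53 target genes were lower as a group. Of 29 with a count 26 fell, 21 by over 2-fold, and 1 rose (median -1.65). MDM2 (chromosome 12, 68808177 to 68845544), the ubiquitin ligase that degrades p53 and is itself induced by it, was at 1818, 1633, 1936, 1642 and 1576 CPM on day 0 and 58.4, 58.9, 61.1, 60 and 53.5 CPM on day 2 (-4.88, SE 0.08, edgeR adjusted p = 1.64e-37). The 5 day 2 libraries were within 58.4 ± 2.92 CPM, and day 1 (73.6 ± 4.18 CPM) and day 4 (61.3 ± 6.22 CPM) were also low. DDB2, a DNA damage sensor of nucleotide excision repair, was the member that rose (0.55), and POLH, a translesion polymerase, had -0.15, which did not pass with all libraries but did without replicate 2 of day 0 (-0.21) or replicate 3 of day 2 (-0.18), with a filter on low counts (-0.18) or with median-ratio factors (-0.17). The BCL2 family, which decides on release of cytochrome c, had 3 members higher and 10 lower of 16 (median -0.85). BBC3, which encodes the killer protein PUMA, was at 147, 144, 128, 133 and 132 CPM on day 0 and 5.17, 5.36, 6.2, 5.86 and 6.45 CPM on day 2 (-4.56, SE 0.11). PMAIP1, which encodes NOXA, fell by 2.62 and BCL2L11, which encodes BIM, by 1.18 on the log2 scale. Protective members fell too, with MCL1 going from 1199.9 ± 50.6 to 478 ± 21.2 CPM (-1.33) and BCL2 changing by -1.38. BIK (0.62) and BID (0.59) were the highest, and BIK did not pass without replicate 3 of day 0 (0.50).

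Immediate-early genes, which cells transcribe within minutes of a stimulus, were lower in 32 of 35 members and higher in 1 (median -2.02). FOS was at 58.6, 51.1, 53.6, 49.9 and 48.1 CPM on day 0 and 6.6, 2.25, 1.8, 2.16 and 2.52 CPM on day 2 (-4.11), and replicate 1 of day 2 was the highest of its day. EGR1, a zinc finger factor, was at 21.8, 22.2, 15.4, 18.4 and 17.5 CPM on day 0 and 1.58, 1.5, 1.35, 0.617 and 1.26 CPM on day 2 (-3.88, SE 0.30), with no overlap. DUSP6, a phosphatase of ERK, was the member that passed as higher (0.23), narrowly, and it did not pass in DESeq2 (0.21) or without any 1 of replicates 1, 2, 4 and 5 of day 0 or 1, 2 and 5 of day 2 (0.16 to 0.23). MYC, though on this list, moved little, from 981 ± 94.5 to 862 ± 52.8 CPM (-0.19, edgeR adjusted p = 0.00784), and did not pass without scaling factors (-0.059). CArG boxes, the sites of serum response factor, were present in windows of 3 of 26 members (EGR1, EGR2 and SRF) and of 1.72% of all entries. The EGR1 stretch (bases -150 to -1, chr5:138465329-138465478, + strand), the member with the largest fall that holds such boxes there, has one at -105 to -96 and another at -83 to -74, in capitals.
EGR1: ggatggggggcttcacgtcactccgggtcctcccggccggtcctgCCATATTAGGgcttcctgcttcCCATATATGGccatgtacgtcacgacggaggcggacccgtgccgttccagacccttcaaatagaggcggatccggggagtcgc
The fall of EGR2 was -3.45 on the log2 scale and that of SRF -0.66.

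Inflammatory and antigen-presentation genes were lower more often than higher. NF-kappaB subunits and targets fell in 16 of 22 members and rose in 1 (median -0.82), from CCL3 (-6.71) and CCL4 (-4.65), both chemokines, to TRAF2 (0.093), which did not pass, and LTB (0.56), lymphotoxin beta. Without scaling factors TRAF2 passed as higher (0.22) and 2 members rose. Interferon-stimulated genes fell in 14 of 30 and rose in 1 (median -0.64), from IFI44L (-4.35) and OASL (-2.38) to DDX58 (0.22), which did not pass, and BST2 (0.68), tetherin. MHC class I and its peptide loading fell in 10 of 16 and rose in 2 (median -0.40). HLA-E went from 829 ± 24 to 237 ± 23.1 CPM (-1.81) and HLA-F changed by -1.85, and HLA genes share reads with their paralogs. The members that rose were PSMB8 (0.71) and PSMB9 (0.46), subunits of the immunoproteasome, and without scaling factors 4 members rose.

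Targets of the integrated stress response were lower on day 2. Of the 26 measured, 23 fell, 20 by over 2-fold, and 0 rose (median -1.99). ATF4 itself was at 909.6, 834, 900.4, 845 and 789.8 CPM in the day 0 libraries and 242, 225, 214, 224 and 222 CPM in the day 2 libraries (-1.93, SE 0.06, edgeR adjusted p = 3.16e-28). CHAC1 (chromosome 15, 40952962 to 40956512), which degrades glutathione, was at 17.4, 13.6, 13.9, 14.6 and 13.9 CPM on day 0 and 0.287, 0.107, 0.901, 0.463 and 0.629 CPM on day 2 (-4.9, SE 0.25). Replicate 1 of day 0 was the highest of its day, and every day 2 library was below 1 CPM. ATF3, a stress-induced repressor, fell by 4.46 and DDIT3, which encodes the pro-death factor CHOP, by 3.58 on the log2 scale. ASNS, asparagine synthetase, was at 619.8, 613, 588, 656 and 630.1 CPM on day 0 and 80.8, 90.4, 83.7, 94.5 and 84.8 CPM on day 2 (-2.84), and PHGDH and PSAT1, enzymes of serine synthesis, changed by -3.32 and -2.78. TRIB3, a pseudokinase induced by CHOP, changed by -2.46. The members that did not pass were VLDLR (0.51), a lipoprotein receptor, DDIT4 (0.041), an inhibitor of mTORC1, and ALDH18A1 (-0.033), an enzyme of proline synthesis. VLDLR passed as higher without replicate 3 of day 2 (0.59) or without scaling factors (0.63).

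Amino acid transporters fell in 10 of 18 members and rose in 3 (median -1.05). SLC7A11, the cystine importer, was at 182, 182, 183, 174 and 187 CPM on day 0 and 14.2, 13.7, 16.4, 18.8 and 19.7 CPM on day 2 (-3.47, SE 0.10). Its partner SLC3A2 went from 761 ± 52.7 to 168 ± 3.7 CPM (-2.18) and the leucine importer SLC7A5 from 1048 ± 62.7 to 390.3 ± 13.8 CPM (-1.43). SLC6A9, a glycine transporter, fell most (-3.61), and SLC38A5 (1.04) and SLC7A6 (0.37) were the highest. Cytosolic tRNA synthetases, which charge tRNAs with amino acids, fell in 14 of 20 members and rose in 5 (median -0.65). WARS (-2.17) and SARS (-2.16) were the lowest, and RARS (0.75) and FARSA (0.77) the highest.

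ATF4 acts through an element that was sought only in the exact form TGATGCAA, on either strand, so sites of another form were not counted. It was found in windows of 128 of 14194 entries (0.902%), and in 6 of 16 tRNA synthetases with a window, 3 of 21 integrated stress response targets (CHAC1, CEBPG and JDP2) and 2 of 14 amino acid transporters (SLC1A4 and SLC1A5). The 6 synthetases with the element, MARS, AARS, CARS, TARS, NARS and IARS, all fell, by 0.53 to 1.59 on the log2 scale. Of the 10 synthetases without it 5 fell, 4 rose and HARS did not pass, with values from -2.17 to 0.77. The median was -1.19 with the element and -0.12 without it, and the groups overlapped. For integrated stress response targets the order was the other way, with -1.95 with the element and -2.23 without it. For amino acid transporters the medians were -0.77 and -0.48. YARS, LARS, DARS and VARS had no window. Shown are bases -150 to -1 of IARS (chr9:92293698-92293847, - strand), with the element, read on the other strand, in capitals.
IARS: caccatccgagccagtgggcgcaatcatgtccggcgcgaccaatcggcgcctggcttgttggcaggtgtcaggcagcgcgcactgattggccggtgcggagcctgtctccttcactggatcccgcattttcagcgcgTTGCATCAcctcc
The element lies at -13 to -6 in IARS. The level of AARS was 950.0, 924, 882, 976 and 986 CPM on day 0 and 356, 348, 350.4, 330.4 and 335 CPM on day 2 (-1.45), and that of IARS 395 ± 12.3 and 274 ± 10.6 CPM (-0.53).

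**Figure D3:**
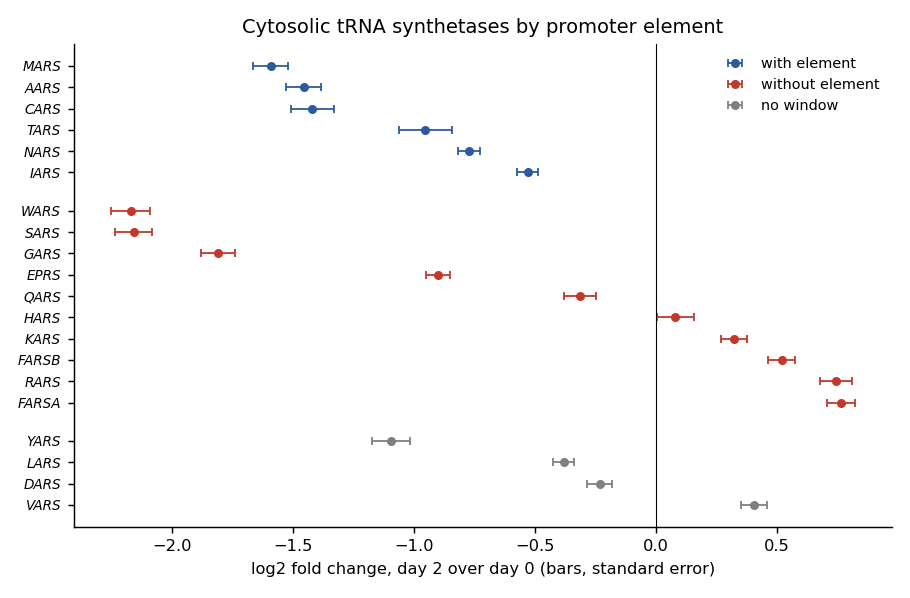
Fitted log2 fold change of day 2 over day 0 (horizontal axis, bars for the standard error) for 20 cytosolic tRNA synthetases. They are grouped by whether TGATGCAA, the only form of the ATF4 element sought, was found in their promoter windows. The 6 with the element lie between -1.59 and -0.53, the 10 without it between -2.17 and 0.77, and 4 had no window.

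Proteasome subunits were still raised on day 2, by little. Of 36 constitutive subunits 26 rose and 2 fell (median 0.34), and against day 1 35 were lower and 1 higher (median -1.49). For comparison 20.2% of all entries were higher and 19.4% lower on day 2 than on day 1. PSMD1, a scaffold of the 19S cap, was at 57.1, 54.8, 44.2, 60.1 and 52.7 CPM on day 0 and 129, 134, 131, 145 and 129 CPM on day 2 (1.32), and had been at 444 ± 20.7 CPM on day 1. PSMD2, the other scaffold, rose by 1.01, PSMD9, an assembly chaperone, was the lowest (-0.52), and PSMA5 had -0.29 at few counts, which did not pass. The fall of PSMD9 did not pass without replicate 1 of day 0 (-0.37) or without scaling factors (-0.40), and PSMA1 (-0.17), named after its value was seen, was the other subunit that fell. The count of subunits that fell was 1 without any 1 of replicates 1, 2 and 4 of day 0 or replicate 3 of day 2 or with the libraries of both days alone, and 0 without scaling factors. Cytosolic heat shock chaperones rose in 22 of 31 and fell in 2 (median 0.45). Among members with a mean log2 CPM above 0, HSPA4L (1.94) and CHORDC1 (1.9), cochaperones of HSP70 and HSP90, were the highest. DNAJB2 (-0.88) and HSPA1L (-0.71) were the lowest of these. HSPA1L did not pass with all libraries but did without replicate 3 of day 0 (-0.81) or replicate 5 of day 2 (-0.83) or with a filter on low counts (-0.74).

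NRF2 targets rose in 15 of 25 members and fell in 6 (median 0.51), and 23 of the 25 were lower than on day 1. HMOX1, heme oxygenase, was at 3.66, 4.28, 1.97, 4.61 and 5.39 CPM on day 0, 187 ± 22.9 CPM on day 1 and 10.6, 14.6, 10.8, 20.1 and 11.3 CPM on day 2 (1.76 over day 0). NQO1, a quinone reductase, rose by 1.01. SLC7A11, also on this list, and OSGIN1, an oxidative stress-induced growth inhibitor, were the lowest. OSGIN1 had been above day 0 on day 1 (2.44) and was below it on day 2 (-1.68), with 5.48, 6.98, 6.43, 5.81 and 7.12 CPM on day 0 and 2.15, 1.93, 0.901, 2.47 and 2.67 CPM on day 2. Genes of the endoplasmic reticulum and the unfolded protein response fell in 24 of 32 and rose in 3 (median -0.37). HSPA5, which encodes the chaperone BiP, went from 2540.3 ± 169.5 to 1342 ± 40.6 CPM (-0.92), and SEL1L (-1.995), part of the export machinery for misfolded proteins, and ERN1 (-1.9), which encodes the sensor IRE1, fell most. XBP1, the factor that IRE1 activates by splicing, was at 441 ± 20.1 and 470.1 ± 27.4 CPM (0.094, not passing). SPCS1 (0.42), of the signal peptidase, and SDF2L1 (0.36) were the highest, and SDF2L1 did not pass without replicate 3 of day 0 or replicate 2 of day 2 (both 0.27). Without scaling factors 6 members of this list rose, XBP1 (0.22) among them, and without either of those libraries 1 did.

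Lysosomal genes rose in 13 of 36 and fell in 14 (median -0.047, which turned to 0.081 without scaling factors). Among members with a mean log2 CPM above 0, GLA (1.07), which cleaves glycosphingolipids, was the highest. GAA (-1.2), which cleaves glycogen, and HEXA (-0.93) were the lowest of these. Autophagy genes fell in 15 of 31 and rose in 4 (median -0.16). BNIP3 (1.35), a mitophagy receptor, was the highest, and ATG16L1 had 0.95, which passed only without replicate 2 of day 0 (1.40). Among members with a mean log2 CPM above 0, WIPI1 (-1.36) and GABARAPL1 (-1.23) were the lowest. GABARAPL1 had stood at 71.5 ± 5.08 CPM on day 1, and was at 12.2, 6.51, 12.9, 8.82 and 9.43 CPM on day 0 and 2.73, 4.5, 3.49, 7.87 and 2.83 CPM on day 2, where replicate 4 of day 2 reached into the day 0 range.

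Cholesterol synthesis and LDL uptake rose in 23 of 26 members and fell in 2 (median 1.25), 16 by over 2-fold. MSMO1 (chromosome 4, 165327667 to 165343164), a sterol demethylase, was at 19, 13.8, 16.6, 16 and 16.9 CPM in the day 0 libraries and 121, 138, 122, 118 and 123 CPM in the day 2 libraries (2.91, SE 0.09, edgeR adjusted p = 6.58e-28), without overlap. SQLE, squalene epoxidase, was at 45.4, 49.8, 42.2, 46.9 and 45 CPM on day 0 and 182, 184, 169, 172 and 172 CPM on day 2 (1.94). SREBF2, which encodes the main activator of the pathway, and GGPS1 were the members that passed as lower, by little (-0.15 and -0.22). Neither passed without scaling factors (-0.023 and -0.099) or with the libraries of both days alone (-0.12 and -0.19), and GGPS1 did not without any 1 of replicates 3 and 5 of day 0 or 3, 4 and 5 of day 2 (-0.22 to -0.20). Sterol efflux genes rose in 4 of 10 and fell in 5 (median -0.11, or 0.016 without scaling factors). The exporters ABCG1 (-2.41) and ABCA1 (-2.39) fell most, and MYLIP (1.32), a ubiquitin ligase, and LPCAT3 (1.21) rose most. Fatty acid synthesis rose in 14 of 19 and fell in 4 (median 0.66), with FADS2 (2.28), a desaturase, and FASN (1.65), fatty acid synthase, the highest and LPIN1 (-0.41) and ACSL1 (-0.22) the lowest among members with enough counts. ACSL1 did not pass without scaling factors (-0.095), where 2 of the 19 fell.

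Messages of the respiratory chain mostly rose where the nuclear genome encodes them and mostly fell where the mitochondrial genome does. Of 73 nuclear-encoded subunits of the respiratory chain 63 rose and 2 fell (median 0.69), from ATP5G1 (1.8), of ATP synthase, and NDUFC1 (1.59), of complex I, to ATP5G2 (-0.22) and NDUFS4 (-0.31). NDUFS4 did not pass without replicate 4 of day 0 (-0.24) or replicate 4 of day 2 (-0.26), ATP5G2 did not without replicate 4 (-0.16) or 5 (-0.18) of day 2, and neither did without scaling factors. Of 13 messages encoded by the mitochondrial genome 12 fell and 0 rose (median -0.60). MT-CYB, cytochrome b, was at 8809.8, 10420.0, 11892, 9739.9 and 8130.4 CPM on day 0 and 4733, 4755, 4420.4, 5021 and 4157 CPM on day 2 (-1.09, SE 0.11). MT-ND1 changed by -0.97, MT-CO3 by -0.34, and MT-CO1 had -0.16, which passed only without replicate 5 of day 0 (-0.24). Without scaling factors MT-CO3 did not pass (-0.21). The tricarboxylic acid cycle rose in 20 of 22 and fell in 0 (median 0.51), with PC (1.52), pyruvate carboxylase, and FH (1.00), fumarase, the highest and IDH3G (0.10) and DLST (-0.17), which did not pass, the lowest. DLST passed as lower without replicate 2 or 5 of day 0 or 2 or 3 of day 2 (-0.23 to -0.21) and in DESeq2 (-0.20), and IDH3G as higher without scaling factors (0.23). Fatty acid oxidation rose in 10 of 20 and fell in 2 (median 0.39), from SLC25A20 (1.46) and ACADVL (1.16) to ECI1 (-0.59) and ACADS (-1.33), and ACADS did not pass without any 1 of replicates 4 and 5 of day 0 or 1, 2 and 4 of day 2 (-1.30 to -1.07). Mitochondrial chaperones, proteases and import factors rose in 16 of 30 and fell in 6 (median 0.22). Those with a mean log2 CPM above 0 ran from PHB (1.11) and HSPE1 (0.98) to PPRC1 (-0.53) and LONP1 (-0.77).

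Glycolysis and glucose uptake rose in 19 of 26 members and fell in 3 (median 0.45). PKM, pyruvate kinase, went from 1853 ± 137 to 5503 ± 417 CPM (1.57) and PGAM1 rose by 1.41, while SLC2A3 (-1.51), a glucose transporter, and PFKFB3 (-0.49) fell. TXNIP, an inhibitor of glucose uptake that MondoA controls, was at 327, 376, 338, 385 and 387 CPM on day 0 and 1478, 1068, 1042, 997 and 1408 CPM on day 2 (1.73), whereas its relative ARRDC4 fell by 2.05 on the log2 scale. In all, 4 of 7 members of the MondoA list rose and 2 fell. Hypoxia-induced genes rose in 6 of 16 and fell in 5 (median 0.057), from EGLN3 (1.72) and ADM (1.68) to ANKRD37 (-0.66) and VEGFA (-0.92), and 3 fell without scaling factors.

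All 78 cytosolic ribosomal proteins fell, by -0.69 on median and by over 2-fold for 2 of them. RPL3, of the large subunit, was at 4816, 4674, 4467, 4953 and 4867 CPM on day 0 and 2308, 2467, 2208, 1894 and 2191 CPM on day 2 (-1.1, SE 0.06). RPL12 changed by -1.07, and RPSA had the smallest change (-0.28). The median was -0.56 without scaling factors. Large-subunit proteins of the mitochondrial ribosome rose in 33 of 48 and fell in 1 (median 0.37), from MRPL1 (1.12) and MRPL35 (0.95) to MRPL45 (-0.14), which passed only without replicate 2 of day 2 (-0.21) or with a filter on low counts (-0.17), and MRPL41 (-0.48). Ribosome biogenesis and RNA polymerase I rose in 21 of 40 and fell in 9 (median 0.19), from NHP2 (0.96) and POLR1C (0.86) to LTV1 (-0.53) and RRP12 (-0.66). MYC, MAX and their partners rose in 5 of 11 and fell in 4. Among members with a mean log2 CPM above 0, MAX (0.82) and MYCL (0.55) were the highest. MNT (-1.02) and MXD1 (-0.70), both antagonists of MYC, were the lowest of these. Without scaling factors 2 of the 11 fell.

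**Figure D4:**
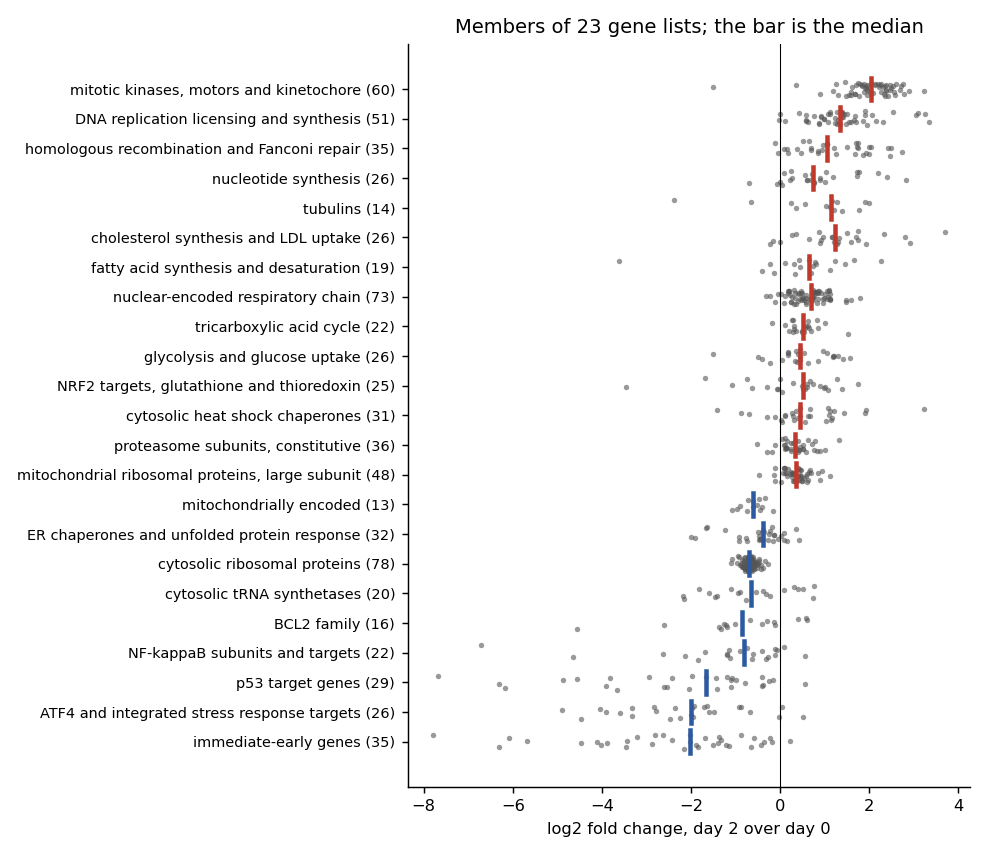
Fitted log2 fold change of day 2 over day 0 (horizontal axis) for the members of 23 gene lists, with the number of measured members in brackets, grey points for members and a bar at the median (red above 0, blue below). Mitosis lies highest, with a median of 2.04, and immediate-early genes lowest, with -2.02.

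Markers of plasma cells were present on both days. Of 16 measured, 6 rose and 6 fell (median -0.03, or 0.10 without scaling factors). IRF4, the factor on which myeloma cells depend, went from 462 ± 15.2 to 319.9 ± 4.95 CPM (-0.53), and PRDM1, which encodes BLIMP1, was at 91.2 ± 7.12 and 82.4 ± 13 CPM (-0.15), which passed as lower only without replicate 1 or 5 of day 2 (both -0.22). SDC1, which encodes CD138, was at 305 ± 20 and 335 ± 20.2 CPM (0.14), CD38 at 190.3 ± 7.61 and 209.6 ± 15 CPM (0.14), and SLAMF7 at 23.9 ± 2.01 and 17.2 ± 2.32 CPM (-0.47). TNFRSF17, which encodes BCMA, was at 51.5, 58.4, 50.8, 56.5 and 58.9 CPM on day 0 and 77.6, 86, 81.6, 78.3 and 80.9 CPM on day 2 (0.55), without overlap. MZB1 rose by 0.54 and GPRC5D by 0.77, and POU2AF1 had 0.12. SDC1, CD38 and POU2AF1 passed narrowly. With median-ratio factors, or without any 1 of replicates 1, 2 and 4 of day 0 or 1 and 2 of day 2, they did not pass, at 0.081 to 0.14, and 3 of the 16 markers rose. Some of the 3 also failed to pass without other single libraries. JCHAIN, which joins polymeric immunoglobulin, fell from 4757 ± 360.1 to 2891 ± 213 CPM (-0.72). Among members with a mean log2 CPM above 0, FCRL5 (-1.47) and CD28 (-0.76) were the lowest. FCRL5 did not pass without replicate 1 of day 0 (-1.26) or replicate 1 of day 2 (-1.24).

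B cell markers fell in 7 of 14 and rose in 2 (median -0.85, or -0.59 at bounds). Those with a mean log2 CPM above 0 ran from BCL6 (-1.94) and HLA-DRA (-1.23) to PAX5 (0.81) and CR2 (0.83). Adhesion and homing receptors fell in 13 of 24 and rose in 5 (median -0.31). At a mean log2 CPM above 0 they ran from ITGA5 (-1.35) and ITGB2 (-1.25) to CD9 (0.75) and S1PR4 (2.02). Of 20 markers of T cells, myeloid cells, erythrocytes, platelets, stroma, endothelium and epithelium, FCGR3A, PPBP, COL1A2, COL3A1 and VWF had no count in these 10 libraries. The list summed to 317 to 389 CPM per library on day 0 and 312 to 357 CPM on day 2, nearly all of it KRT18 and EPCAM, with 8600 and 1732 counts over the day 0 libraries and 8968 and 3190 over those of day 2. Among members with a mean log2 CPM above 0, CD3E (-1.58) was the lowest and HBA1 (1.69) the highest. They had 96 and 19 counts on day 0 and 42 and 80 on day 2. Over the whole list, values ran up to 2.75, and CD14, a myeloid marker, went from 10 to 49 counts. HBA1 did not pass without replicate 1 of day 2 (1.11). Of the 17 with a count 4 were higher and 2 lower, and 2 were higher without that library. The part of such markers in the differences above was not tested.

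Day 2 was set beside the days before and after it, in the same fit and with the same day 0 and day 2 libraries, so these comparisons share samples. Mitotic genes had medians over day 0 of 0.31, 2.04 and 1.56 on the successive days 1, 2 and 4, and 59 of the 60 were higher on day 2 than on day 1. PLK1 stood at 26 ± 4.65 CPM on day 1 and 84.7 ± 8.49 CPM on day 4, and TOP2A at 82 ± 9.65 and 338 ± 18.9 CPM, the day 1 level of TOP2A being below that of day 0 (-0.48). Replication genes had medians of 0.69, 1.35 and 0.75 on days 1, 2 and 4, and 40 of 51 were higher on day 2 than on day 1. Integrated stress response targets were at -1.72, -1.99 and -1.26, and 22 of 26 were lower on day 2 than on day 4, where 16.7% of all entries were higher and 13.9% lower. Ribosomal proteins were lower on day 2 than on day 4 in 75 of 78, and cholesterol synthesis was higher in 22 of 26. Against day 1, 14 ribosomal proteins were higher and 7 lower, and 6 and 9 members of cholesterol synthesis. Their medians over day 0 were already -0.71 and 1.49 on day 1. Immediate-early genes had medians of -1.81, -2.02 and -1.52 on days 1, 2 and 4, and -1.51 on day 10. Those of p53 targets were -1.57, -1.65 and -1.31, and -1.4 on day 10. Both lists were thus low from day 1 on.

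**Figure D5:**
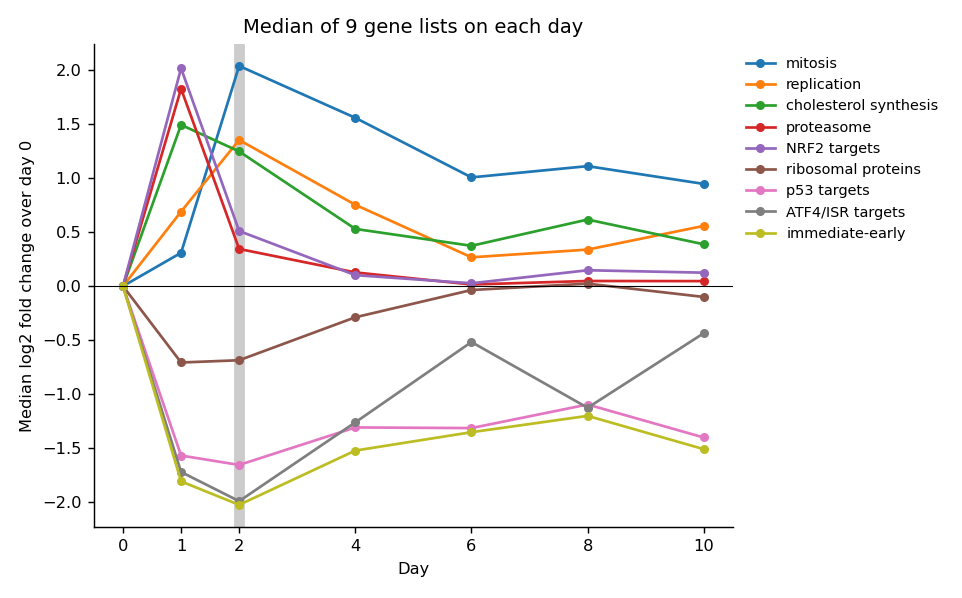
Median fitted log2 fold change over day 0 (vertical axis) of 9 gene lists on each day (horizontal axis), with day 2 shaded. Every point uses the same day 0 libraries, and on day 2 mitosis stands at 2.04 and targets of ATF4 at -1.99.

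Only few transcripts passed as highest or lowest on day 2, by over 2-fold against each of days 0, 1 and 4. There were 31 that were highest (0.172% of those tested) and 29 that were lowest (0.161%). Among the highest with enough counts, KRT86, a hair keratin, was at 5.2, 7.14, 5.9, 5.41 and 6.93 CPM in the untreated libraries and 33.2, 29.5, 32.9, 32.5 and 32.1 CPM in those of day 2, against 7.4 ± 1.01 CPM a day earlier and 10.4 ± 2.34 CPM on day 4. It shares sequence with KRT83 (2.71 over day 0) and other type II keratins, and their values are uncertain. OLFML2B, described above, was also among them, at 5.22 ± 1.04 CPM on day 1 and 6.67 ± 0.645 CPM on day 4. CAMKV (2.08), a pseudokinase of neurons, FRMD1 (2.21) and SDC2 (1.92), a heparan sulfate proteoglycan, were at low counts. The day 0 libraries of CAMKV were at 0, 0, 0.536, 2.4 and 0 CPM and those of day 2 at 1.87, 2.79, 2.48, 2.31 and 2.2 CPM, so the days overlapped through replicate 4 of day 0. Of the lists, mitosis had 0 of 60 and replication 1 of 51 members among the 31.

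Of the 29 that were lowest on day 2, 6 were on the list of integrated stress response targets. CHAC1 was at 1.97 ± 0.964 CPM on day 1, 0.478 ± 0.307 CPM on day 2 and 9.53 ± 0.571 CPM on day 4. SLC7A11 was at 64.3 ± 5.22, 16.6 ± 2.66 and 55.8 ± 10.3 CPM on these days, and CTH, which makes cysteine from cystathionine, at 10.7 ± 1.86, 3.53 ± 1.07 and 16.4 ± 4 CPM. ADM2, a peptide of the calcitonin family, was at 191, 184, 162, 181 and 177 CPM on day 0 and 12.6, 14.8, 13.9, 13.1 and 11.3 CPM on day 2 (-3.76), after 39.3 ± 2.59 CPM on day 1 and ahead of 51.7 ± 3.53 CPM on day 4. A minimum on day 2 among the days compared was the rule by which all of these were named. CCL3 and CLIP2 (-2.35), a microtubule-binding protein at low counts, complete the 6 with the largest differences.

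Outside the protein-coding entries, 14381 entries of other biotypes passed a filter on low counts, of which 689 were called higher on day 2 (4.79%) and 1695 lower (11.8%). Retained-intron entries, transcript models that keep an intron, made up the largest part, with 799 of 4741 lower and 163 higher. Their share of all counts was 7.29%, 6.95%, 8.05%, 6.52% and 6.93% in the day 0 libraries and 4.96%, 4.65%, 5.36%, 5.82% and 5.08% in those of day 2, without overlap. The share of protein-coding entries rose from 79.8% ± 1.12 to 84.1% ± 0.75 (SD, n = 5; exact two-sided permutation test, p = 0.00794, the smallest that 5 against 5 libraries allow, adjusted over 6 biotypes 0.0159). The same p was found for retained introns and for immunoglobulin constant genes, whose share fell from 2.09% ± 0.11 to 1.18% ± 0.089. Processed transcripts went from 2.82% to 2.45% (exact permutation p = 0.0159, adjusted 0.0238), and lincRNA and nonsense-mediated decay entries did not pass. For symbols with both kinds of entry, the log2 fold change of the retained-intron entry minus that of the protein-coding one had a median of -0.417, and 70.0% of the retained-intron entries lay below. Reads of the same gene can be split between such entries, so the estimates are not independent.

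The largest rises among other biotypes were those of IGKV1D-8 (5.48), an immunoglobulin variable gene with close paralogs, a nonsense-mediated decay entry of THOC3 (4.65), which has near-identical copies, RP11-54O7.3 (4.55) and AC005174.2 (4.44), a processed pseudogene. The retained-intron entry of RRAD fell with its protein-coding entry (-7.09 and -5.87), and that of LINC01138 changed by -6.90. AC116366.7, a processed transcript, was at 7.20 ± 4.34 CPM on day 0. A MAP2K3 entry of the nonsense-mediated decay class was at 5.004 ± 2.68 CPM. Both were listed at 0 in all 5 day 2 libraries. Here CPM are scaled to the library size over all biotypes, not to that of protein-coding entries.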

How the data were processed

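The authors pseudoaligned RNA-seq reads of 35 libraries (7 days, 5 each) with kallisto 0.44.0 to GENCODE transcripts and summed them with tximport; the submitters' processing notes also name GRCh38.p12, DESeq2 1.25.8 and R 3.5.0. The deposited table holds these estimated counts as whole numbers for 84647 entries, each a symbol and 1 of 79 biotypes, and no normalization was applied to it. Pseudoalignment shares reads among transcripts of like sequence, so paralogs and biotypes of 1 symbol can trade counts. How the cells were handled was taken from the study's methods.

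Protein-coding entries with any count were fitted with edgeR 4.0.16 in R 4.3.3 (quasi-likelihood test, TMM factors from 0.929 to 1.08, day as the only factor over all 35 libraries) with Benjamini-Hochberg adjustment over 17999 entries. The SE was the absolute log2 fold change divided by the square root of the test's F. Alternatives were other scaling (median-ratio factors or none), a filter on low counts, other fold cutoffs and prior counts, DESeq2 1.42.0, a fit of the libraries of the days compared alone, a replicate block and leaving out each library. Other biotypes were fitted with the same test after a filter on low counts, with library sizes and TMM factors over all entries. Shares of counts were compared by exact permutation. The fits were tested on simulated counts. Intervals and the floor of 3 counts over a group cover counting error only.

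Per list the 2 highest and 2 lowest members with a mean log2 CPM above 0 were named, and any member needed as background. Some genes and promoters that these rules would name are not reported here. Over all entries the 10 largest rises and falls whose days did not overlap were named, and of entries highest or lowest on day 2 the 6 that differed most from their nearest day. The members and the 42 gene lists were chosen with earlier results of these data known. Lists overlap in a few genes. Gene positions are those of GENCODE 44 on GRCh38, in which 93.2% of entries were found by name, and promoter sequences are from RefSeq (GRCh38.p14), matched by symbol for 78.9%. Deviations of libraries with the same replicate number correlated at -0.047 to 0.055, and those with different numbers at -0.084 to 0.11. The main fit therefore did not pair the libraries. Such correlations cannot show whether a number follows the same subculture.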

Additional observations from a re-analysis of the deposited data

Results flagged for a closer look

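In 27 of 434 groups of 5 libraries examined (217 named genes on 2 days) a single library stood apart, with a gap to its nearest neighbour of more than 0.71 of the group's range, where chance alone gives about 1 group in 20. The lowest library of day 0 stood apart for ORC6 (replicate 5, 0.842), DDB2 (replicate 2, 0.745), ATP5G1 (replicate 3, 0.71), MYCL (replicate 3, 0.711) and SDC1 (replicate 3, 0.821), with the replicate and the gap as a share of the range in brackets. On day 0 the highest library did so for CHAC1 (replicate 1, 0.717), LPIN1 (replicate 3, 0.725), RPL12 (replicate 4, 0.775), FCRL5 (replicate 1, 0.717) and KRT6C (replicate 2, 0.879). The lowest library of day 2 was set off for ORC6 (replicate 1, 0.794), HIST1H2BH (replicate 1, 0.841), TUBB2A (replicate 5, 0.836), CHORDC1 (replicate 2, 0.782), DLST (replicate 5, 0.867), GAA (replicate 4, 0.743), HLA-F (replicate 5, 0.815), KRT86 (replicate 2, 0.722), FOXM1 (replicate 5, 0.712) and EGR1 (replicate 4, 0.739). The highest of day 2 was set off for EXO1 (replicate 4, 0.721), PHLDA3 (replicate 5, 1), MSMO1 (replicate 2, 0.724), MNT (replicate 1, 0.725), PLK1 (replicate 1, 0.735), FOS (replicate 1, 0.754) and SLAMF7 (replicate 2, 0.73). Of the genes named, replicate 3 of day 0 stood apart as the lowest for ATP5G1, MYCL and SDC1 and as the highest for LPIN1. In PHLDA3 the day 2 group holds 4 zeros, so a single library with counts takes up the whole range.

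OSGIN1 and GABARAPL1 lay above day 0 on day 1 and below it on day 2, with a log2 difference of day 2 minus day 1 of -4.11 and -4.07, both past the edgeR test of that difference. The comparisons share the day 0 libraries. Outside the protein-coding entries, 689 entries were called higher and 1695 lower on day 2.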

How the results depend on the processing

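The numbers called higher and lower on day 2 stayed within 1.5 times under every alternative except another fold cutoff, with 971 and 1201 after a filter on low counts, 1094 and 1672 with median-ratio factors, 1060 and 1473 in DESeq2, and 1078 to 1138 and 1492 to 1631 when any 1 library was left out. A cutoff of over 4-fold left 318 higher and 656 lower, with 0 highest and 7 lowest on day 2, and no fold cutoff gave 4181, 4397, 813 and 487. With the replicate number as a block 1111 were higher and 1498 lower. The study's methods describe subcultures sampled over the days, so a shared number may mark the same subculture. This was not established. The lincRNA share changed sign without the 10 most abundant entries (-0.012 percentage points) and ranged from -0.00075 to 0.12 without any 1 library, and the share of nonsense-mediated decay passed without those entries (-0.14 points).

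Of the genes named, these changed sign, all of them among those not passing: PCNA (0.097 without scaling factors and 0.0016 with the libraries of both days alone), ORC4 (-0.026 after a filter on low counts, -0.012 with median-ratio factors, -0.012 in DESeq2, -0.035 to 0.055 without 1 library), CTPS2 (0.057 without scaling factors, -0.17 to 0.021 without 1 library), MUS81 (0.0048 without scaling factors), RAD51B (0.083 without scaling factors, -0.19 to 0.081 without 1 library) and DDIT4 (-0.077 to 0.097 without 1 library). The causes were not tested. At counts as low as those of GDF15 or MUC21 on day 2, depth limits a fall to the interval of its ratio.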
